A study of Drosophila melanogaster with 15 samples.

Results

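The pore-forming subunits of ion channels of nerve and muscle cells were followed in adult male Drosophila melanogaster through 8 genes: para, cac, Sh, Shab, Shal, eag, slo and Rdl. Members were matched by symbol in the array annotation. Every probe set, a group of short DNA probes that together report 1 transcript region, was taken if it carried exactly 1 gene symbol and that symbol was one of these names. The 8 genes, of 11982 measured by such probe sets, were covered by 16 probe sets: 7 for Sh, 2 each for cac and Shab, and 1 each for para, eag, Shal, slo and Rdl. All 16 are reported, since those of Sh did not move alike.

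Nerve impulses in insects rise on an inward sodium current and end on outward potassium currents. The gene para encodes the voltage-gated sodium channel of the fly, and cac the pore subunit of the voltage-gated calcium channel that admits calcium at the presynaptic terminal and so triggers transmitter release. Sh (Shaker), Shab and Shal encode potassium channels of 3 voltage-gated families, eag (ether-a-go-go) encodes a potassium channel of another family, and slo (slowpoke) encodes a potassium channel opened jointly by calcium and voltage. Rdl encodes a chloride channel opened by the inhibitory transmitter GABA. Several of these channels, Sh and slo among them, also work in muscle.

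The study measured flies that carry Dsup, a nucleosome-binding protein from a tardigrade whose name is short for damage suppressor, beside control flies without it. The 4 groups were untreated control flies (4 arrays), untreated flies of 4 Dsup transgenic lines (4 arrays), control flies after 1000 Gy of ionizing radiation (3 arrays) and the same 4 Dsup lines after 1000 Gy (4 arrays). Each array held RNA of whole bodies of 25 males, given as 3 days old in all groups. No source used here gives the driver of the transgene, its insertion sites, the parental stock of the controls or the time from irradiation to RNA isolation. Effects of the transgene and of genetic background cannot be told apart.

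Levels are log2 values after quantile normalization of all 15 arrays. A probe set is called higher or lower at a limma adjusted p below 0.05, with Benjamini-Hochberg adjustment over 18769 probe sets. As deposited, the mean of the arrays was 4.05 in untreated Dsup lines, 4.51 in irradiated Dsup lines, 4.64 in untreated controls and 4.88 in irradiated controls. The 3 irradiated control arrays shared identical deposited values in pairs at 35.9% to 40.8% of probe sets, against at most 205 probe sets in any other pair. Of the 16 ion channel probe sets, 11 had at least 2 identical values among these 3 arrays and 6 had 3. These 6 were eag, slo, Shab 1638535_a_at and 1633404_at, and Sh 1640193_at and 1632879_at. The SD within that group was 0.00371 to 0.0162 for 9 of the 16 and 0.105 to 0.232 for the other 7, and counts are also given with these arrays averaged to 1. Untreated control replicate 4 stood apart, with an 18S ribosomal RNA control at 3.11 above the array median against 6.90 to 8.18 in the other arrays. No detection calls were used here. The mean level of 10 of the 16 probe sets lay at or above the 40th percentile of all probe sets, and that of 6 lay below it.

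After 1000 Gy, transcripts of most of these channels were lower in control flies. Of the 16 probe sets, 11 fell, 1 rose and 4 were not called. Over all probe sets 17.1% were called lower, 16.9% higher and 34% in either direction. The fitted change was below 0 for 15 of the 16 members and for 51.3% of all probe sets, and its median was -0.61 against -0.01. Without untreated control replicate 4, 12 of the 16 were called lower and none higher, beside 16.5% and 16.4% of all probe sets. At an unadjusted p below 0.05 limma then gave 13 lower and 1 higher. In the fit of all 15 arrays, each of the genes para, cac, Sh, Shab, Shal, slo and Rdl had at least 1 probe set that fell, and eag had none. In 10 of the 16 probe sets every irradiated control array lay below every untreated one, as 24.3% of all probe sets did. In 1 probe set every irradiated array lay above, as 23.6% of all did, and either pattern was seen in 47.9%.

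In the Dsup lines fewer of the channels passed the test in this fit, though not with the 3′ covariate described further on. There 7 probe sets fell, those of para and eag, 1 of cac and 4 of Sh, and none rose by limma, also at an unadjusted p below 0.05, where 10 were lower. Over all probe sets 10.6% were called lower, 10.7% higher and 21.3% in either direction. The change was below 0 for 14 of the 16 members and for 48.8% of all probe sets, with medians of -0.38 and 0.01. The same 7 probe sets were the ones without overlap between untreated and irradiated lines, a pattern that 10.7% of all probe sets showed downwards and 10.7% upwards, 21.4% in all. Both responses are changes in RNA per unit of whole-body RNA: fewer cells of a type and less RNA per cell cannot be told apart.

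The scaling bears on these counts. Among all probe sets called in control flies, 49.8% were higher after quantile normalization, 84.6% on the deposited values and 30.5% with arrays centred on ribosomal protein genes. The deposited values moved the median of all probe sets by 0.23 in control flies and 0.47 in Dsup lines, and the ribosomal centring by -0.12 in both. For the 16 channel probe sets in control flies, 7 fell and 1 rose on the deposited values, where 7.65% of all probe sets fell and 41.9% rose. With ribosomal centring 15 fell and none rose, where 27.1% of all fell and 11.9% rose. In Dsup lines, where 50.3%, 98.4% and 15.7% of all called probe sets were higher under these 3 scalings, 2 channel probe sets fell and 4 rose on the deposited values, beside 1.23% and 76% of all probe sets. With ribosomal centring 10 fell and none rose, beside 21.5% and 4.01% of all.

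**Figure D1:**
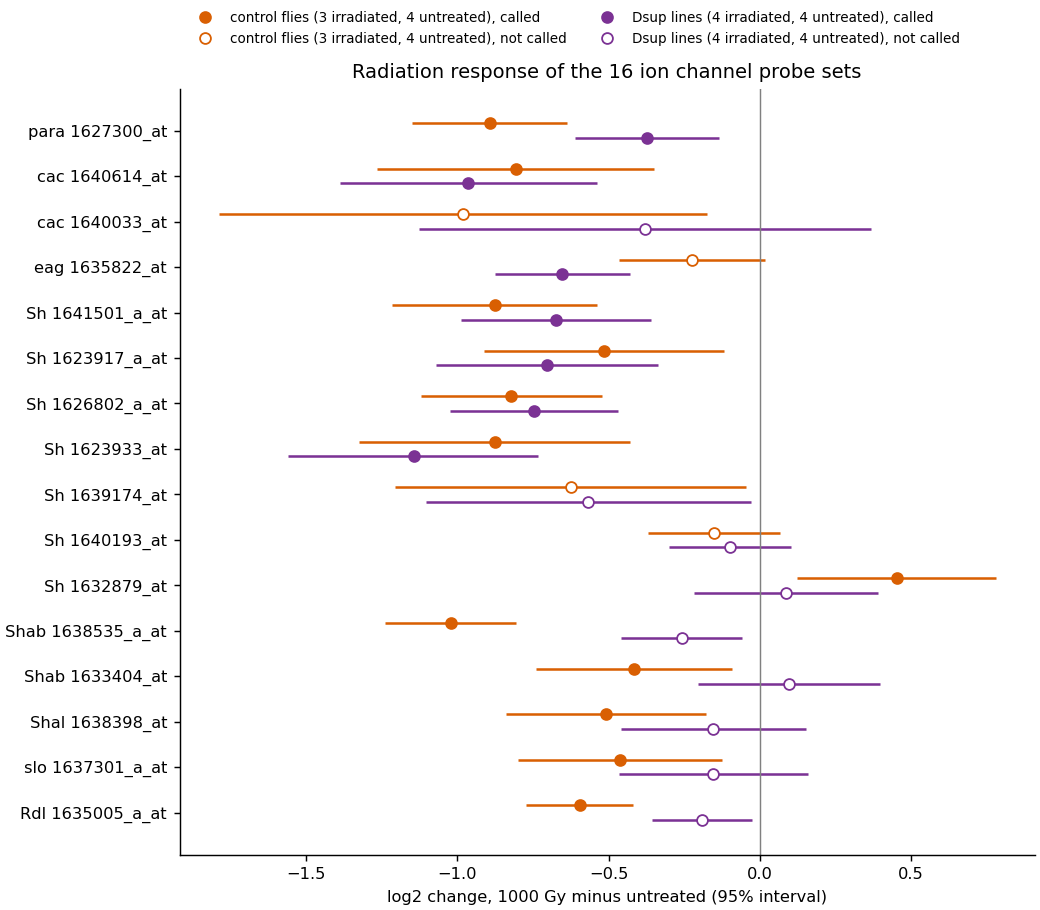
Log2 change from untreated to 1000 Gy of each ion channel probe set (points) with its 95% interval (lines), in control flies (orange) and in Dsup lines (purple). Filled points passed the adjusted threshold. Points of control flies reach -1.02 for Shab 1638535_a_at and only Sh 1632879_at lies to the right of 0 among them.

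The sodium channel gene para is represented by probe set 1627300_at. Its level was 4.87, 5.16, 5.07 and 4.54 in the untreated controls and 4.02, 4.00 and 4.03 in the irradiated controls. It was 4.70, 4.60, 4.79 and 4.82 in untreated Dsup lines 1 to 4 and 4.45, 4.24, 4.41 and 4.31 in the same lines after radiation. The lowest untreated array of either genotype thus lay above every irradiated one. In control flies para fell by 0.89 ± 0.120 (SE), which is 1.86-fold (adjusted p = 7.15e-05), and in Dsup lines by 0.37 ± 0.111, or 1.30-fold (adjusted p = 0.027). On the deposited values the change in Dsup lines was 0.05 (adjusted p = 0.697), above 0. The responses of the genotypes differed by 0.52 ± 0.164, with a 95% interval from 0.17 to 0.87 and an adjusted p of 0.0617, so the difference was not called. Without untreated control replicate 4 it was 0.64 (adjusted p = 0.00653). Without Dsup line 3 or 4 in the untreated group, or line 2 or 4 in the irradiated group, the fall in Dsup lines was no longer called, with adjusted p between 0.052 and 0.0727.

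The calcium channel gene cac had a brighter probe set, 1640614_at, and a dim one, 1640033_at. The first read 6.83, 6.76, 6.93 and 6.18 in untreated controls and 5.78, 6.13 and 5.69 in irradiated controls. In Dsup lines 1 to 4 it read 7.42, 7.15, 6.42 and 6.94 untreated and 6.14, 5.74, 6.21 and 5.99 after radiation. Again no irradiated array reached the untreated arrays of its genotype. The fall was 0.81 ± 0.215 in controls (adjusted p = 0.00947) and 0.96 ± 0.199 in Dsup lines (1.95-fold, adjusted p = 0.00366). The difference between these responses was -0.16, with an interval from -0.78 to 0.47, wide enough to hold changes in either direction. The fall in controls was not called on the deposited values (-0.51, adjusted p = 0.0679), where the change in Dsup lines was -0.47 (adjusted p = 0.0472). The control fall was also not called with irradiated controls averaged, but that group then holds 1 array, so this is not read as a result.

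The dim cac probe set varied more within groups. Untreated controls spanned 2.25 to 3.54, irradiated controls 1.96 to 2.37, untreated Dsup lines 2.74 to 4.45 and irradiated Dsup lines 2.41 to 3.36. Its change of -0.98 ± 0.379 in control flies was as large as that of the brighter probe set but did not pass the threshold (adjusted p = 0.0571). It passed without untreated control replicate 4, the array with the lowest untreated value, at -1.26 (adjusted p = 0.0164). In Dsup lines the change was -0.38 (adjusted p = 0.468), and without untreated line 1, which read 4.45 against at most 2.89 in the others, it was 0.03 (adjusted p = 0.955).

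Sh, the gene whose mutants shake their legs under ether, encodes a fast inactivating potassium channel. Its 7 probe sets divided by level. The 4 brightest, 1641501_a_at, 1623917_a_at, 1626802_a_at and 1623933_at, fell in both genotypes, whereas the 3 dimmest, all below the 40th percentile of level, were not called lower in either. On the deposited values 3 of these 4 were not called in Dsup lines, with changes of -0.21 for 1641501_a_at, -0.25 for 1623917_a_at and -0.29 for 1626802_a_at (adjusted p = 0.236, 0.206 and 0.0693), and that of 1623933_at was -0.71 (adjusted p = 0.00426). For 1641501_a_at the untreated controls read 5.93, 6.22, 6.38 and 5.94 and the irradiated controls 5.24, 5.23 and 5.25. Dsup lines 1 to 4 read 6.33, 6.38, 5.63 and 6.05 untreated and 5.43, 5.28, 5.62 and 5.36 after radiation. Every irradiated control array lay well below the untreated ones, while irradiated Dsup line 3 came close to untreated line 3. The fall of this probe set was 0.88 ± 0.159 in controls (adjusted p = 0.000724) and 0.67 ± 0.147 in Dsup lines (adjusted p = 0.00516).

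For Sh 1626802_a_at, untreated controls lay between 5.50 and 6.18 and irradiated controls between 4.94 and 5.13. Untreated Dsup lines lay between 5.67 and 6.08 and irradiated ones between 5.02 and 5.34. The groups did not overlap in either genotype, and the falls were 0.82 ± 0.141 (adjusted p = 0.000464) and 0.75 ± 0.130 (adjusted p = 0.0012). Sh 1623933_at read 4.58, 5.19, 5.31 and 5.06 in untreated controls and 4.23, 4.22 and 4.02 in irradiated controls. It read 5.23, 5.26, 4.34 and 5.002 in untreated Dsup lines 1 to 4 and 3.84, 4.03, 3.89 and 3.49 in these lines after radiation. Its fall in Dsup lines, 1.15 ± 0.194 or 2.21-fold (adjusted p = 0.000977), was the only one of 2-fold or more among the 16 probe sets there. In controls it fell by 0.88 ± 0.209 (adjusted p = 0.00478), and the responses differed by -0.27, with an interval from -0.88 to 0.34.

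Sh 1623917_a_at had 1 untreated control array, replicate 4, at 5.15, while the others lay between 5.86 and 6.20 and the irradiated controls between 5.17 and 5.39. Its fall in controls was 0.51 ± 0.186 (adjusted p = 0.0441), and without that array 0.73 (adjusted p = 0.000538). The change was -0.25 on the deposited values (adjusted p = 0.28). Without any one of the other untreated control arrays, or of the irradiated control arrays, it was not called, with adjusted p up to 0.138. In Dsup lines, where untreated values of 5.93 to 6.16 stood above irradiated values of 5.07 to 5.52, it fell by 0.70 ± 0.172 (adjusted p = 0.00992).

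Among the dim Sh probe sets, 1639174_at had changes of -0.63 in controls (adjusted p = 0.0886) and -0.57 in Dsup lines (adjusted p = 0.122). In controls it was called lower without untreated control replicate 4 (-0.86, adjusted p = 0.015) and with ribosomal centring (-0.85, adjusted p = 0.0351). Sh 1640193_at stayed within 2.30 to 2.74 on all arrays, with changes of -0.15 (adjusted p = 0.274) and -0.10 (adjusted p = 0.488), and was called lower in controls with ribosomal centring (-0.32, adjusted p = 0.0311). The dimmest, 1632879_at, went the other way. It read 1.79, 1.62, 1.87 and 1.24 in untreated controls and 2.09, 2.07 and 2.08 in irradiated controls, against 1.03 to 1.68 in untreated and 1.32 to 1.61 in irradiated Dsup lines. The irradiated controls were above all other arrays, and the rise in controls was 0.45 ± 0.154 (adjusted p = 0.0341). The rise was not called with arrays centred on ribosomal protein genes (adjusted p = 0.161). It was also not called with the irradiated controls averaged, which leaves 1 array in that group and is not read as a result. Without untreated control replicate 2 or 4, or any one irradiated control array, the adjusted p ran from 0.0611 to 0.0894. Across the 15 arrays the levels of the 5 brightest Sh probe sets correlated at r = 0.52 to 0.96 with each other, and 1632879_at correlated with the brightest at -0.30. These arrays share group means, array quality and scaling. With the group means removed the latter r was 0.43.

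**Figure D2:**
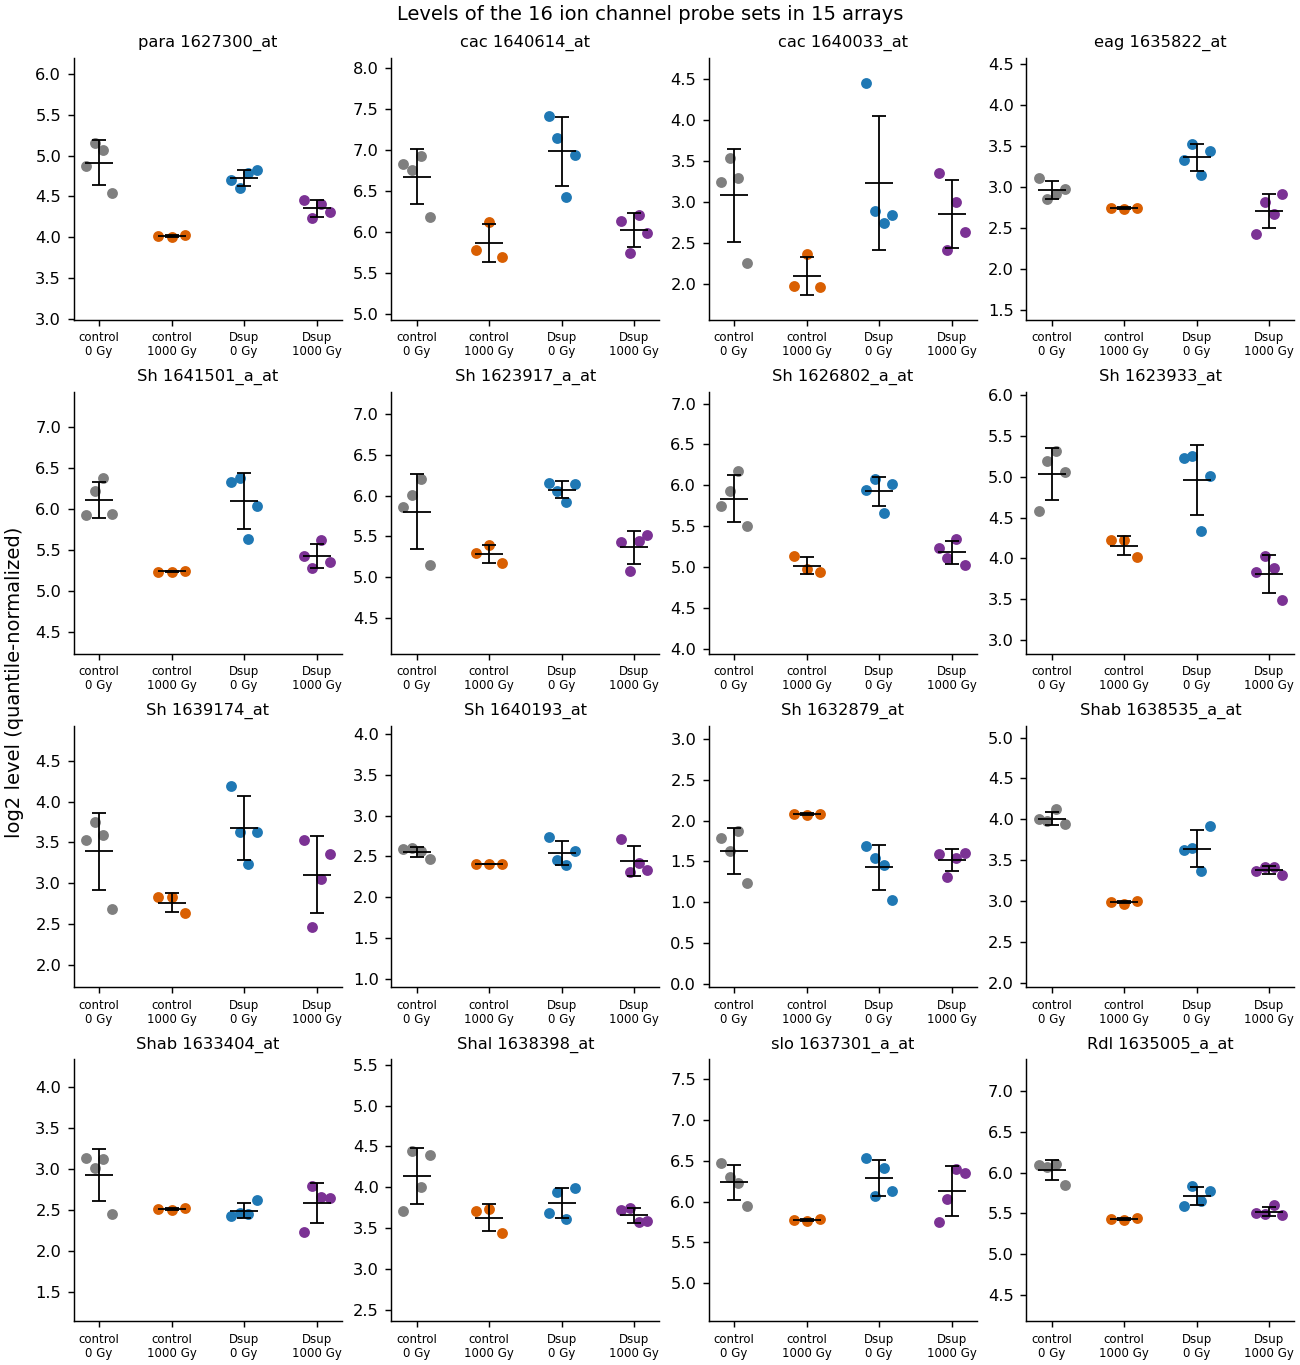
Quantile-normalized log2 level of each of the 16 ion channel probe sets on the 15 arrays, by group. Points are arrays, the wide tick is the group mean and bars are 1 SD (n = 4, or 3 for irradiated controls). Each panel spans the same number of log2 units around its own middle, and points of the irradiated controls lie almost on top of each other in 9 of the 16 panels.

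Shab encodes a slowly inactivating delayed rectifier, the potassium current that repolarizes many neurons. Probe set 1638535_a_at had the lowest adjusted p of the 16 in control flies. It read 4.00, 3.98, 4.12 and 3.94 in untreated controls and 2.99, 2.97 and 3.00 in irradiated controls. Dsup lines 1 to 4 read 3.63, 3.65, 3.37 and 3.92 untreated and 3.37, 3.42, 3.42 and 3.32 irradiated. The 4 groups thus stood in the order untreated control, untreated Dsup, irradiated Dsup, irradiated control, and the 2 Dsup groups overlapped. Their means ± SD were 4.01 ± 0.0773, 3.64 ± 0.228, 3.38 ± 0.0515 and 2.99 ± 0.0162.

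In control flies Shab 1638535_a_at fell by 1.02 ± 0.102, or 2.03-fold (adjusted p = 6.8e-06), and it passed the threshold in 27 of 27 alternatives. In Dsup lines its change was -0.26 ± 0.0942 (adjusted p = 0.0621), and on the deposited values 0.15. The responses differed by 0.76 ± 0.139 (95% interval 0.47 to 1.06, adjusted p = 0.00382). That difference was called in 24 of 27 alternatives. The others were the irradiated controls averaged to 1, and each of 2 sets of arrays alike in spike-in level. Set 1 holds 1 array of each Dsup group and set 2 holds 1 irradiated control. All of these fits have groups of 1 array, so their missing calls are not read as a result. Untreated Dsup lines were 0.37 ± 0.0942 lower than untreated controls (1.29-fold, adjusted p = 0.0222), and 1.02 lower on the deposited values. That call was lost in 7 of 26 alternatives, among them only the groups compared (adjusted p = 0.118) and the 3′ covariate described further on (adjusted p = 0.0608). After radiation they were 0.39 ± 0.102 higher than controls (1.31-fold, adjusted p = 0.0207), but 0.02 higher on the deposited values (adjusted p = 0.88). This call held in 17 of 27 alternatives.

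The dim Shab probe set, 1633404_at, read 3.13, 3.02, 3.12 and 2.46 in untreated controls and 2.51 to 2.53 in irradiated controls. Dsup lines read 2.42 to 2.62 untreated and 2.23 to 2.79 irradiated. Only the first 3 untreated controls stood above the rest. The fall in controls of 0.42 ± 0.152 was called (adjusted p = 0.047) in 8 of 26 alternatives. It turned to 0.12 with that covariate, and was 0.57 without untreated control replicate 4 (adjusted p = 0.00224). In Dsup lines the change was 0.10 (adjusted p = 0.663).

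Shal encodes a fast transient potassium channel of neuronal cell bodies and dendrites. Untreated controls read 3.71, 4.44, 4.01 and 4.39 on probe set 1638398_at, and irradiated controls 3.71, 3.73 and 3.45, so that untreated replicate 1 lay among the irradiated arrays. Dsup lines 1 to 4 read 3.69, 3.95, 3.62 and 3.99 untreated and 3.73, 3.74, 3.58 and 3.58 irradiated. Shal fell by 0.51 ± 0.155 in controls (adjusted p = 0.0194), a call lost without untreated control replicate 2 or 4 or irradiated control replicate 3 (adjusted p = 0.0583, 0.0527 and 0.0962). In Dsup lines its change was -0.15 ± 0.143 (adjusted p = 0.469) and the responses differed by 0.35, with an interval from -0.10 to 0.80.

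eag, named like Sh for leg shaking under ether, had the reverse pattern of calls. On its dim probe set, 1635822_at, untreated controls read 3.11, 2.86, 2.92 and 2.98 and irradiated controls 2.75, 2.73 and 2.74. Dsup lines 1 to 4 read 3.33, 3.52, 3.15 and 3.45 untreated and 2.43, 2.81, 2.68 and 2.92 irradiated. The untreated Dsup lines lay above all other arrays. In Dsup lines eag fell by 0.65 ± 0.105, or 1.57-fold (adjusted p = 0.000674), and each of the 4 lines was lower after radiation. This change was -0.24 on the deposited values (adjusted p = 0.0613) and not called. In controls the change was -0.22 ± 0.114 (adjusted p = 0.144). The responses differed by -0.43 ± 0.155 (adjusted p = 0.0991), and with the Dsup line as a block the adjusted p was 0.0497. Untreated Dsup lines were 0.40 ± 0.105 higher than controls (adjusted p = 0.0266), whereas the deposited values gave -0.20 (adjusted p = 0.0997). The call was also lost with only the groups compared (adjusted p = 0.0754). The same held without untreated control replicate 2 or 3, or untreated Dsup line 2 or 4 (adjusted p = 0.0542 to 0.0711).

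slo, whose channel helps to end calcium-carrying impulses in nerve and muscle, is represented by 1637301_a_at. It read 6.47, 6.30, 6.22 and 5.95 in untreated controls and 5.78, 5.76 and 5.78 in irradiated controls. In Dsup lines 1 to 4 it read 6.53, 6.07, 6.41 and 6.13 untreated and 5.75, 6.03, 6.40 and 6.35 irradiated. Line 1 read lower after radiation and line 4 higher, and the Dsup groups overlapped. The fall in controls was 0.46 ± 0.159 (adjusted p = 0.0351). It was not called on the deposited values (adjusted p = 0.343), or without any one irradiated control or untreated control replicate 1, 2 or 3 (0.0601 to 0.0896). With the irradiated controls averaged it was not called either, but that group then holds 1 array, so this is not read as a result. In Dsup lines the change was -0.15 ± 0.147 (adjusted p = 0.483), and the responses differed by 0.31, with an interval from -0.15 to 0.77.

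Rdl, the GABA-gated chloride channel and a target of cyclodiene insecticides, read 6.10, 6.06, 6.10 and 5.84 in untreated controls on probe set 1635005_a_at. Irradiated controls read 5.43, 5.42 and 5.44. Dsup lines 1 to 4 read 5.59, 5.84, 5.65 and 5.78 untreated and 5.51, 5.49, 5.61 and 5.48 irradiated. The untreated controls were the highest group and the irradiated controls the lowest. Rdl fell by 0.59 ± 0.0831 in controls, or 1.51-fold (adjusted p = 9.46e-05). In Dsup lines the change was -0.19 ± 0.0769 (adjusted p = 0.0899), and on the deposited values it was 0.26 (adjusted p = 0.00956). Untreated Dsup lines were 0.31 ± 0.0769 lower than controls (adjusted p = 0.0195), and 0.97 lower on the deposited values. This call too was lost with only the groups compared (adjusted p = 0.111) and with the 3′ covariate (adjusted p = 0.0574). The responses differed by 0.41 ± 0.113 (adjusted p = 0.0375), a call that held in 7 of 27 alternatives, with an adjusted p of 0.0535 where the Dsup line was a block.

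Between genotypes few channel probe sets differed. In untreated flies 2 were lower in Dsup lines (Shab 1638535_a_at and Rdl), 1 was higher (eag) and 13 were not called, beside 5.25%, 5.42% and 10.7% of all probe sets called lower, higher and either way. The same 3 were the ones whose groups did not overlap, as did not 6.73% of all probe sets downwards, 6.86% upwards and 13.6% in all. The median difference of the members was -0.02. Among all called probe sets 50.8% were higher, against 0.299% on the deposited values, 82.5% with median centring and 71.5% with ribosomal centring. The deposited values moved the median of all probe sets by -0.61, and on them 12 channel probe sets were lower and none higher, beside 88.9% of all probe sets lower and 0.266% higher.

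After 1000 Gy, 1 channel probe set was lower in Dsup lines than in controls (Sh 1632879_at, by 0.57 ± 0.154, adjusted p = 0.0266) and 1 was higher (Shab 1638535_a_at). Over all probe sets 6.06% were lower, 5.97% higher and 12% either. Both channel calls were lost without any one irradiated control, or irradiated Dsup line 2 or 3. Adjusted p was then 0.0524 to 0.0896 for Sh 1632879_at and 0.0517 to 0.0804 for Shab 1638535_a_at. That of Sh 1632879_at was also lost with median centring (adjusted p = 0.148) and ribosomal centring (adjusted p = 0.123). The members' difference was above 0 in 13 of 16, with a median of 0.12 against 0.01 for all probe sets. Groups did not overlap for 1 member downwards and 5 upwards, namely para, cac 1640033_at, Sh 1641501_a_at, Shab 1638535_a_at and Rdl, beside 17.8%, 18.5% and 36.3% of all probe sets downwards, upwards and in all. With the irradiated controls averaged to 1, that group holds 1 array, so the missing calls among the 16 are not read as a result. Of all called probe sets, 49.6% were higher, 2.51% on the deposited values, 76.3% with median centring and 61.4% with ribosomal centring. On the deposited values, which shifted the median by -0.39, 5 channel probe sets were lower and none higher, beside 60.3% of all lower and 1.55% higher.

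The difference between the radiation responses was called for 2 of the 16, Shab 1638535_a_at and Rdl, both with a smaller fall in Dsup lines. Over all probe sets 4.31% had a called difference above 0, 4.77% below 0 and 9.08% either. The members' median was 0.14. On the deposited values 5 were called, with a shift of 0.23 in the median and 89.9% of all calls above 0 against 47.5%, beside 22.9% of all probe sets called. The control and Dsup responses share no array with each other, but each shares its arrays with this difference.

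Measures of RNA quality moved with these levels. The 3′ probe sets of the actin and GAPDH controls exceeded the 5′ ones by 0.774 to 1.24 in untreated controls, 1.01 to 1.19 in untreated Dsup lines, 1.34 to 1.51 in irradiated controls and 1.25 to 1.46 in irradiated Dsup lines. Every irradiated array thus lay above every untreated one. The mean level of the 16 channel probe sets was 4.16 to 4.62, 4.20 to 4.63, 3.82 to 3.92 and 3.89 to 4.08 in these groups. Untreated control replicate 4 had both the highest 3′ excess and the lowest channel mean of the untreated arrays. With this excess as a covariate, 3 of the 16 probe sets fell in controls, beside 4.38% of all probe sets called lower and 8.98% in either direction. These were para at -0.68 (adjusted p = 0.0408), Sh 1623933_at at -1.17 (adjusted p = 0.0467) and Shab 1638535_a_at at -0.90 (adjusted p = 0.00725). In Dsup lines 5 of the 16 fell with the covariate, beside 5.25% of all probe sets called lower and 10.7% in either direction. With the irradiated controls averaged to 1, where 8.85% of all probe sets were called, 5 fell in controls: para (adjusted p = 0.0139), Sh 1641501_a_at (0.047), Sh 1626802_a_at (0.0349), Shab 1638535_a_at (0.00354) and Rdl (0.0181). The part of RNA quality in the falls was not tested beyond this covariate, whose ranges in untreated and irradiated arrays do not overlap.

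**Figure D3:**
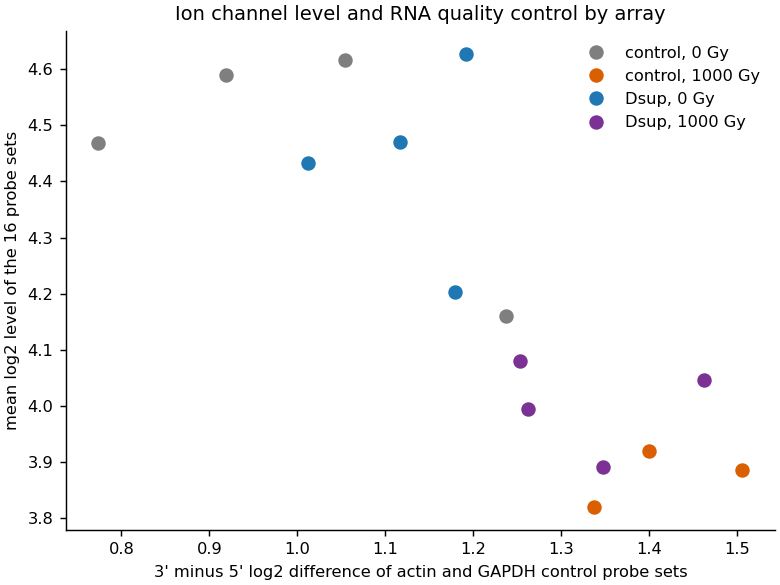
Mean quantile-normalized log2 level of the 16 ion channel probe sets (vertical) against the log2 excess of 3′ over 5′ control probe sets, averaged over actin and GAPDH (horizontal), 1 point an array, coloured by group. The irradiated arrays lie below 4.1 on the vertical axis and to the right of every untreated array.

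Channels outside the 8 were read by the brightest probe set of each gene, of which 17.8% of all 11982 genes fell and 18.5% rose in control flies, and 10.3% fell and 10.3% rose in Dsup lines. By the same measure 7 of the 8 member genes fell in controls and 4 in Dsup lines. In the lists of channels, auxiliary subunits and neuron markers that follow, where none rose by limma, none did at an unadjusted p below 0.05 either. Of 13 other potassium channels, 6 fell and none rose in controls (median -0.23). The falls were 1.39 for Ork1, an open-rectifier leak channel (adjusted p = 0.0019), 1.30 for Irk1, an inward rectifier (adjusted p = 2.85e-05), and 0.76 for SK, opened by calcium alone (adjusted p = 0.000181). In Dsup lines 4 fell, these 3 among them by 0.998, 0.83 and 0.58, and 1 rose (sand, by 0.38).

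Of 4 other sodium and calcium channel pore subunits 2 fell in controls, the T-type Ca-alpha1T by 0.57 (adjusted p = 0.00839) and the L-type Ca-alpha1D by 0.38 (adjusted p = 0.037). In Dsup lines Ca-alpha1D alone fell, by 0.38 (adjusted p = 0.0386). Of 14 auxiliary subunits and direct partners, 6 fell and none rose in controls (median -0.40), and 1 fell in Dsup lines (median -0.12). The latter was stj, an alpha2delta subunit that carries cac to the presynaptic membrane, with falls of 0.73 (adjusted p = 0.000933) and 0.40 (adjusted p = 0.0387). Also lower in controls were unc79 of the sodium leak channel complex by 0.43, qvr (sleepless), a partner of Sh, by 0.41, and Teh2, a homologue of the para subunit tipE, by 0.41 (adjusted p = 0.0156, 0.0306 and 0.0462). The changes of tipE itself, 0.01 and -0.28, of Hk, the beta subunit of Sh, -0.42 and -0.48, and of Slob, a slo-binding protein, 0.00 and -0.03, did not pass the threshold in controls or Dsup lines.

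Among 7 proteins that edit, splice or repress channel transcripts, 5 fell and 1 rose in controls, and 3 fell and none rose in Dsup lines. Adar, the RNA-editing enzyme whose substrates include para, cac, Sh and slo transcripts, fell by 0.70 (adjusted p = 0.0019) and by 0.41 (adjusted p = 0.0399). pum, the translational repressor that acts on para mRNA, fell by 0.92 in controls (adjusted p = 0.00318), and ps (pasilla), a splicing factor, by 0.77 and 0.49 (adjusted p = 7.27e-05 and 0.00248). mle, a helicase of which a particular mutant allele disturbs para splicing, rose by 0.50 in controls (adjusted p = 0.00789).

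Receptors for transmitters were more mixed. Of 9 nicotinic acetylcholine receptor subunits, 3 fell and 1 rose in controls, nAChRalpha5 by 0.65 down (adjusted p = 6.21e-05) and nAChRbeta3 by 0.58 up (adjusted p = 0.0322). Of 9 ionotropic glutamate receptor subunits, 2 fell and 2 rose, among them GluRIA by 0.82 down (adjusted p = 5.27e-05) and Nmdar2 by 0.60 up (adjusted p = 0.0111). Of the 7 other ligand-gated chloride channels only Lcch3, a GABA receptor subunit related to Rdl, passed the threshold in controls, with a fall of 0.27 (adjusted p = 0.034).

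Some markers of neurons fell too, and most did not pass the test. Of 16 measured neuron markers, 6 fell and none rose in controls (median -0.37), and 5 fell and none rose in Dsup lines (median -0.24). Nckx30C, a sodium and calcium exchanger, fell by 0.98 in controls (adjusted p = 0.000664), the presynaptic release protein unc-13 by 0.92 (adjusted p = 1.92e-05) and the active zone protein Rim by 0.54 (adjusted p = 0.00152). Their mean level on single arrays was 6.40 to 6.86 in untreated controls, 6.26 to 6.73 in untreated Dsup lines, 6.19 to 6.37 in irradiated controls and 6.20 to 6.43 in irradiated Dsup lines. The ranges of untreated and irradiated arrays did not overlap in controls and overlapped in Dsup lines. No marker read 0, the dimmest being ple at 1.93.

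Markers of other tissues differed between lists. Of 7 photoreceptor markers, 2 fell in controls, and all 7 changes were below 0 (median -0.30). Of 16 neuron markers 14 changes were below 0. Of 9 muscle markers 1 fell and 7 changes were below 0. Of 15 testis markers 1 fell and 1 rose, and 6 changes were below 0. Of 9 glia markers, repo fell by 0.88 (adjusted p = 0.00134) while wrapper rose by 1.35 (adjusted p = 4.01e-06) and Gli by 1.001 (adjusted p = 0.000423). Of 8 fat body markers, 4 rose and 1 fell in controls, with a median of 1.002, and their mean level was 5.11 to 6.24 in untreated and 6.82 to 7.002 in irradiated controls. In Dsup lines 1 rose and the median was 0.44, with mean levels of 6.45 to 7.43 untreated and 6.80 to 7.48 irradiated. The mean of the fat body markers was thus higher on every untreated Dsup array than on any untreated control array. The genotype differences of Shab 1638535_a_at, Rdl and eag were read on the same arrays. Of these 8 markers Lsp2 and fit were called higher in untreated Dsup lines, by 1.86 (adjusted p = 0.0442) and 2.35 (adjusted p = 0.0257). The mean of testis markers was 7.042 to 7.245 in untreated controls and 6.956 to 7.040 in untreated Dsup lines. These ranges did not overlap, by a narrow margin. The part of a shift between tissues in the channel levels was not tested.

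**Figure D4:**
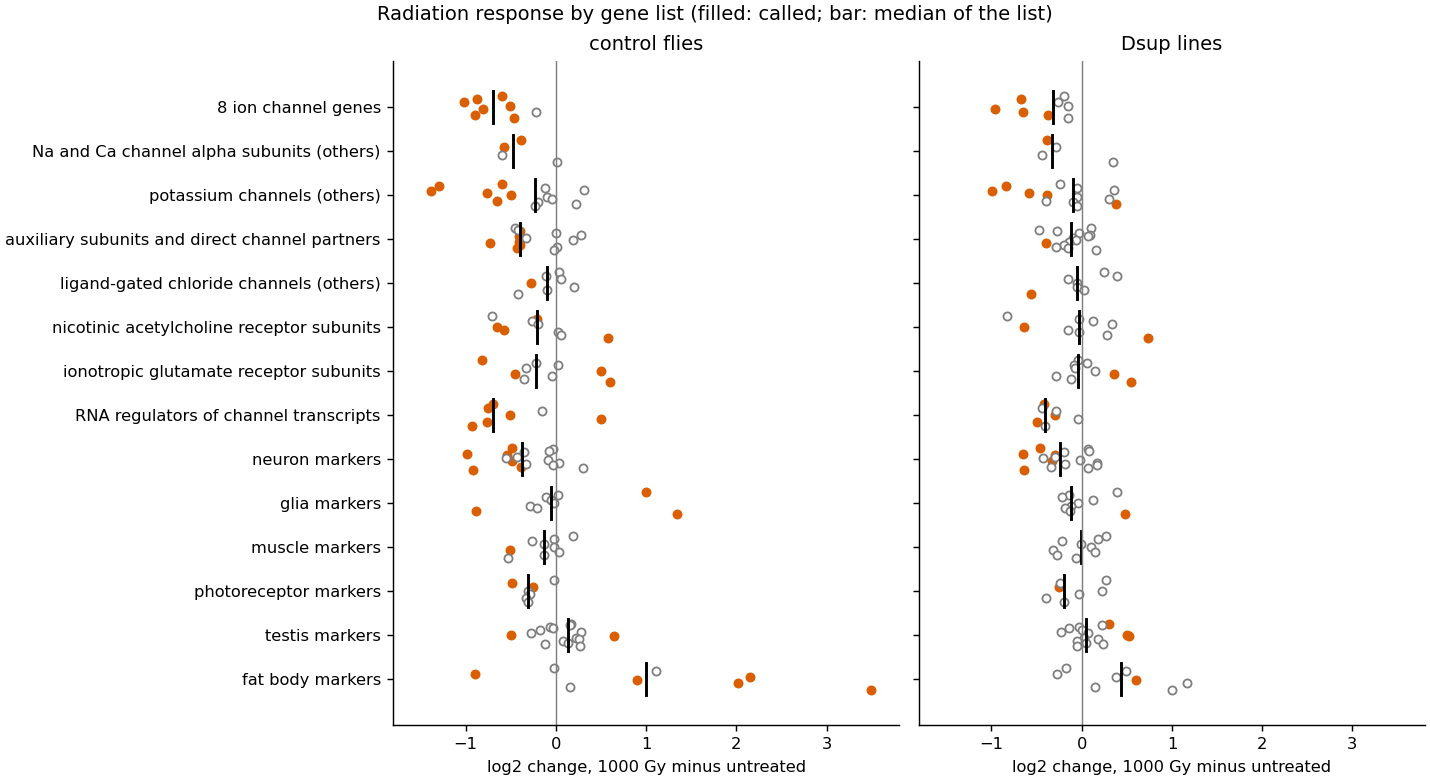
Log2 change from untreated to 1000 Gy of the genes of each list, in control flies (left) and Dsup lines (right). Points are genes by their brightest probe set, filled where called, and the black bar is the median of the list. The medians of the 8 ion channel genes are -0.70 in controls and -0.32 in Dsup lines.

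The genes whose levels followed each channel most closely were taken from 9346 candidates by Pearson correlation over the 15 arrays, a description of arrays that share group means, array quality and scaling. For para these were caup (r = 0.95), CG32813 (0.93) and CG42390 (0.93). For cac they were fj (0.95), 18w (0.93) and gpp (0.93), and for eag muskelin (0.96), CG42663 (0.93) and Hacl (0.90). Sh was followed by Con (0.97), GstE4 (0.96) and aop (0.96), and Shab by Rok, CG33143 and LUBEL (each 0.95). Shal was followed by by (0.95), CG10462 (0.94) and Lerp (0.94), slo by Skel (0.93), CG31636 (0.91) and TM9SF4 (0.90), and Rdl by GIIIspla2 (0.95), eIF3l (0.93) and hfw (0.93). With the group means removed, r was 0.68 between para and caup, 0.85 between Sh and Con, and 0.97 between slo and Skel.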

How the data were processed

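The authors deposited 1 table of log2 probe set levels from Affymetrix arrays hybridized, per the labels, with biotinylated RNA from a 3′ labelling kit. The unit was read from the range and spread of the deposited log2 values. No source used here gives the summary of probes or the normalization, and the deposited arrays of a group share 1 mean.

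The 183 control probe sets were removed, which left 18769: 13647 carry 1 gene symbol, 402 several and 4720 none. All 15 arrays were quantile-normalized together. Group means were fitted over the 4 groups with limma 3.58.1 in R 4.3.3, with empirical Bayes moderation, 5 two-sided contrasts and Benjamini-Hochberg adjustment over all probe sets. Precision is set by the number of arrays. P-values measure the spread between these arrays, and identical values among irradiated controls lower it. The script was tested on simulated data.

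The members and gene lists were chosen with earlier results of these data known. All member probe sets are named; of other lists, up to 3 called genes with the largest change, auxiliary subunits and RNA regulators; and per member the 3 most correlated genes with a level from the 40th percentile up. The gene sand was named after its value was seen.

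Dsup lines 1 to 4 are the same lines before and after radiation and so pair by design; their deviations from group means correlated at -0.13 to 0.101, and those of other pairs at -0.213 to 0.213. Control replicate numbers do not pair arrays. Alternatives were the deposited values, median and ribosomal centring, a level filter, trend and robust moderation, only the groups compared, blocks for Dsup line, replicate number and spike-in set, each spike-in set alone, a 3′ minus 5′ covariate, the mean of a gene's probe sets, and leaving out each array. Averaging the irradiated controls was added after seeing the data. Set 1 of spike-in level holds 6 arrays, with 1 of each Dsup group, and set 2 holds 9, with 1 irradiated control. Counts of alternatives in which a call held include these fits and the averaged one.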

Additional observations from a re-analysis of the deposited data

Results flagged for a closer look

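Within groups of 4 arrays, 48 groups were examined for an array far from the others, and chance sets apart about 1 in 20. The dim cac probe set 1640033_at read 4.45 in untreated Dsup line 1, while the other lines read 2.74 to 2.89. The dim Shab probe set 1633404_at read 2.46 in untreated control replicate 4, against 3.02 to 3.13 in the other untreated controls. Rdl 1635005_a_at read 5.845 in the same array, against 6.06 to 6.10. That array also had the low 18S ribosomal RNA control.

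The radiation response of Dsup lines exceeded that of control flies by 0.76 (log2) for Shab 1638535_a_at (adjusted p = 0.00382 by limma) and by 0.41 for Rdl 1635005_a_at (adjusted p = 0.0375). For both, untreated Dsup lines were lower than untreated controls. For Shab the fitted fall was smaller in Dsup lines with every array left out in turn (0.67 to 0.86), while the Rdl difference stayed called without 4 of the 15 arrays.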

How the results depend on the processing

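Changes of more than 1.5 times in the number of the 16 channel probe sets called were these; the cause was not tested. The radiation response of controls had 12 calls, and 3 with the 3′ minus 5′ covariate, 1 within spike-in set 2 and 5 with irradiated controls averaged. The response of Dsup lines had 7, and 0 within set 1, where 1 untreated array is set against 1 irradiated array, and 3 within set 2. Both sets have groups of 1 array (both Dsup groups in set 1, irradiated controls in set 2), assumed to vary like the others. Few or no calls in comparisons that involve these groups say nothing about stability. Averaging the irradiated controls also leaves 1 array in that group, so the same holds for comparisons with the averaged array. Within set 2 the response of Dsup lines compares 3 untreated with 3 irradiated arrays. The untreated genotype difference there compares 2 control with 3 Dsup arrays, so both of these counts rest on fewer arrays. The genotype difference in untreated flies had 3, and 12 on the deposited values, 1 of 10 after the level filter, 0 with only the groups compared, 1 with the covariate, 0 within either set, and 3 of 8 by gene means. After radiation it had 2, and 5 on the deposited values, 1 with ribosomal centring, 1 of 10 after the filter, 4 with only the groups compared, 1 with the replicate number as a block, and 0 within either set, with controls averaged and by gene means. The interaction had 2, and 5 on the deposited values, 1 with median centring, ribosomal centring, the filter, the replicate number as a block or the covariate, and 0 within either set or with controls averaged. Leaving out 1 array gave 7 to 12, 6 to 7, 0 to 5, 0 to 3 and 1 to 4 calls in this order. The 7 came without untreated control replicate 2 or irradiated control replicate 3, the 0 in untreated flies without untreated control replicate 3 and the 5 without replicate 4, and the 0 after radiation without any irradiated control or irradiated Dsup line 2 or 3. The interaction had 4 without untreated control replicate 4. Of the probe sets tested, 89.2% were called in untreated flies (deposited values), 2.89% (filter), 2.7% (only the groups compared) and 8.07% (covariate). After radiation the shares were 61.8% (deposited values), 19.8% (ribosomal centring), 4.24% (filter), 19% (only the groups compared) and 10.7% (replicate number). For the interaction they were 22.9% (deposited values), 7.88% and 7.72% (median and ribosomal centring), 1.22% (filter), 8.29% (replicate number) and 5.09% (covariate). With the Dsup line as a replicate block, 7 probe sets were called in Dsup lines and 2 in the interaction, where eag was called in place of Rdl; the block changed no other call.

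Values called in the main fit or in the alternative changed sign in few cases. On the deposited values, the radiation response of Dsup lines was 0.053 for para, 0.30 for Sh 1640193_at and 0.26 for Rdl. The genotype difference in untreated flies was -0.20 for eag, -0.40 for Sh 1623917_a_at, -0.57 for Sh 1626802_a_at and -0.61 for slo, and after radiation -0.27 for Sh 1640193_at and -0.38 for Rdl. With the covariate, the response of controls was 0.12 for Shab 1633404_at. Of these values, only those of para, eag and Shab 1633404_at were called in the main fit. Over all probe sets, where 2003, 2258, 1704 and 3999 were called in untreated flies, after radiation, in the interaction and in Dsup lines, the deposited values gave 16742, 11606, 4298 and 14489, median centring 3171 in untreated flies and 4232 after radiation, and ribosomal centring 3724 after radiation. The level filter gave 326, 477, 137 and 1920 of 11261 and, in controls, 4055 against 6384. Only the groups compared gave 506 in untreated flies and 3573 after radiation. The covariate gave 1686 in controls, 2006 in Dsup lines and 956 in the interaction. Averaging the irradiated controls gave 1661 in controls, 48 after radiation and 70 in the interaction, and leaving 1 of them out 1053 to 1239 after radiation and 864 to 961 in the interaction. Within set 1, 3297 were called in controls, 31 in Dsup lines and 0 in the others, and within set 2, 1308, 1666, 31, 89 and 36 in controls, Dsup lines, untreated flies, after radiation and in the interaction. At an unadjusted p below 0.05, limma gave 9, 6, 7 and 6 channel probe sets within set 1 where 0 were called (Dsup lines, untreated flies, after radiation, interaction), and 2, 1 and 1 within set 2 (the last 3 of these).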
